A study of Drosophila melanogaster with 12 samples.

Results

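Oxidative phosphorylation was described here through 28 of the 9367 genes tested in the larval fat body of Drosophila melanogaster. The genes were chosen by symbol: all names that begin with mt:, ND and a digit, CoV or ATPsyn, together with blw, Oscp, sun, levy, cype, ox, RFeSP and Cyt-c-p. Of these genes, 11 lie on the mitochondrial genome, with 9 protein genes and 2 ribosomal RNA genes, and 17 are nuclear. The rule also names Cyt-c1, which is not a symbol of the table and was skipped. The reference annotates 13 protein genes on the mitochondrial genome. The other 4 (mt:ND2, mt:ND4L, mt:ND6 and mt:ATPase8) are not symbols of the table either, so they were not analysed here.

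The respiratory chain of the inner mitochondrial membrane passes electrons from NADH and succinate through complexes I and II to complex III, from there by cytochrome c to complex IV, and on to oxygen. The proton gradient built on the way drives ATP synthase, which is complex V. Complexes I, III, IV and V are mosaics of a few subunits read from the mitochondrial genome and many subunits read from nuclear genes, so both genomes supply parts of each. In the larval fat body, an organ that stores fat and glycogen and secretes proteins into the blood, these complexes serve the oxidation of nutrients.

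All larvae were female, were taken at the wandering stage of the third instar and carried UAS-Dcr2 on the X chromosome with r4-GAL4, which drives transgenes in the fat body. The libraries labelled svp RNAi came from crosses to VDRC stock 100762, with a UAS hairpin meant to silence seven-up (svp), which encodes an orphan nuclear receptor, and the control libraries from crosses to VDRC stock 60100. Each genotype was reared on a high-sugar diet with 0.7 M sucrose or on a control diet with 0.15 M sucrose, and each of the 4 groups has 3 libraries. Whether the libraries of a group stem from separate batches of larvae is not stated in the labels, so a p-value here covers no more than the spread among these libraries, and that spread may be technical.

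The transcript of svp itself, the target of the hairpin, was more abundant in libraries labelled svp RNAi than in control, so svp RNAi stands here for the label of these libraries and not for a measured loss. On high sugar its normalized abundance averaged 1790 ± 356 in the libraries labelled svp RNAi and 641 ± 19.8 in control, and on the control diet 1558 ± 179 in the libraries labelled svp RNAi and 456 ± 73.8 in control (SD, n = 3 each). The fat body markers were all present, 7 of 7 listed genes. Libraries held 4381294 to 6556340 reads over the genes tested, recovered from the deposited values. In the libraries labelled svp RNAi, 15 muscle genes together took 0.265% to 0.349% of the reads, against 0.479% to 0.679% in control libraries, so muscle transcripts moved with genotype. The fat body markers took 22.6% to 26.2% in the libraries labelled svp RNAi, against 27.3% to 32.2% in control. In limma 4 of 7 fell on high sugar and 3 of 7 on the control diet, beside 6.22% and 4.29% of all genes. For 6 neuron markers the share was 0.0717% to 0.0860% in the libraries labelled svp RNAi, against 0.0322% to 0.0438% in control. Even so, 3 of 6 fell on high sugar and 1 rose, beside 6.22% of all genes called lower and 7.17% called higher. On the control diet 1 of 6 fell and 1 rose, beside 4.29% called lower and 4.27% called higher. In bulk RNA, fewer cells of a type and less RNA per cell cannot be told apart.

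Mitochondrially encoded transcripts were least abundant in high-sugar libraries labelled svp RNAi. Their 9 protein genes took 0.852%, 0.468% and 0.137% of the recovered reads in those 3 libraries, against 0.872%, 1.08% and 2.0% in the high-sugar control libraries. On the control diet the share was 0.923%, 1.02% and 2.42% in the libraries labelled svp RNAi, against 1.72%, 1.41% and 1.37% in control. On high sugar, the highest svp RNAi library therefore lay just below the lowest control library. On the control diet the groups overlapped, with the lowest and the highest share both among the libraries labelled svp RNAi. As group means, the share was 0.486% ± 0.358 in svp RNAi on high sugar, 1.32% ± 0.601 in control on high sugar, 1.45% ± 0.837 in svp RNAi on the control diet and 1.5% ± 0.194 in control on the control diet (SD, n = 3 each).

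**Figure D1:**
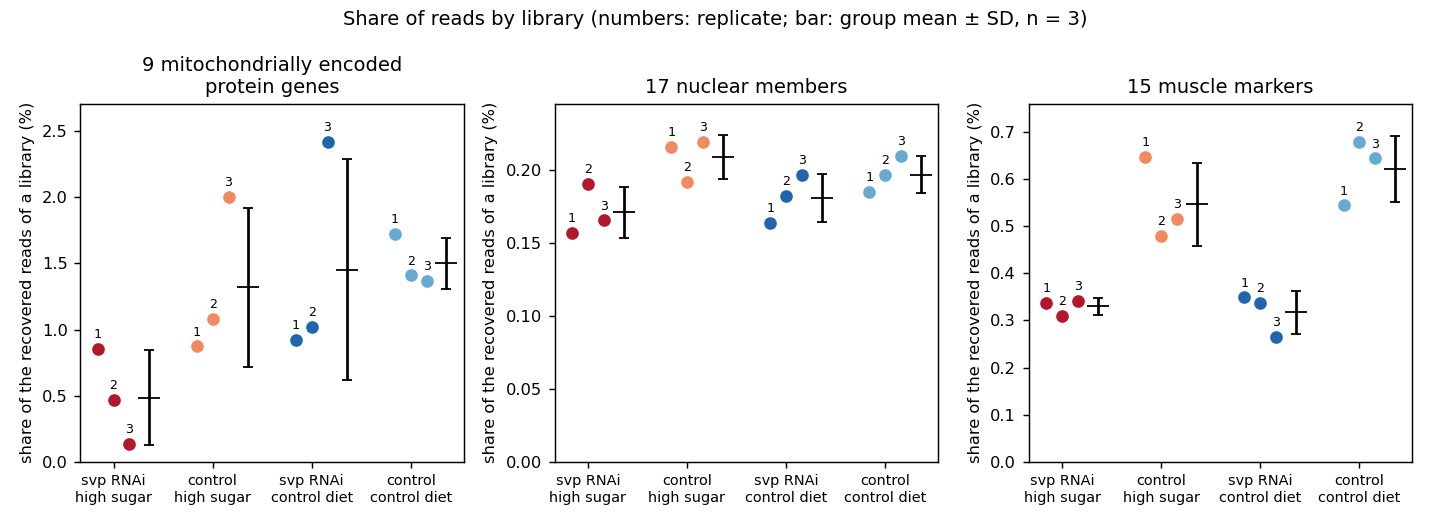
Share of the recovered reads of each library (percent, vertical axis) taken by the 9 mitochondrially encoded protein genes (left), the 17 nuclear genes of the set (middle) and 15 muscle markers (right), for each of the 12 libraries with the group mean and SD. The mitochondrially encoded share runs from 0.137% to 2.42% and the nuclear share from 0.157% to 0.219%, while the muscle share splits by genotype.

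The nuclear genes of the same complexes varied far less. The 17 nuclear genes together took between 0.157% and 0.219% of the reads of a library. In high-sugar libraries labelled svp RNAi, the reads of the 9 mitochondrially encoded protein genes were 5.43, 2.45 and 0.826 times those of the 17 nuclear genes, against 4.04, 5.63 and 9.13 times in high-sugar control. This ratio was 5.63, 5.60 and 12.3 in the control-diet libraries labelled svp RNAi, against 9.33, 7.17 and 6.54 in control-diet control. The library with the lowest ratio, replicate 3 of svp RNAi on high sugar, had a nuclear share of 0.166%, inside the range of the other libraries.

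The spread between replicates also set the genomes apart. On the log2 scale the within-group SD of the 11 mitochondrially encoded genes ran from 0.67 to 1.03, with a median of 0.86. For the 17 nuclear genes it ran from 0.14 to 0.31, with a median of 0.19, beside a median of 0.25 over all genes tested. Each mitochondrially encoded gene thus varied more within groups than 93.3% or more of the genes tested. All 11 had their lowest value in replicate 3 of svp RNAi on high sugar, and 7 had their highest in replicate 3 of svp RNAi on the control diet. Of the nuclear genes, 3 of 17 were lowest in replicate 3 of svp RNAi on high sugar and 0 were highest in replicate 3 of svp RNAi on the control diet.

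**Figure D2:**
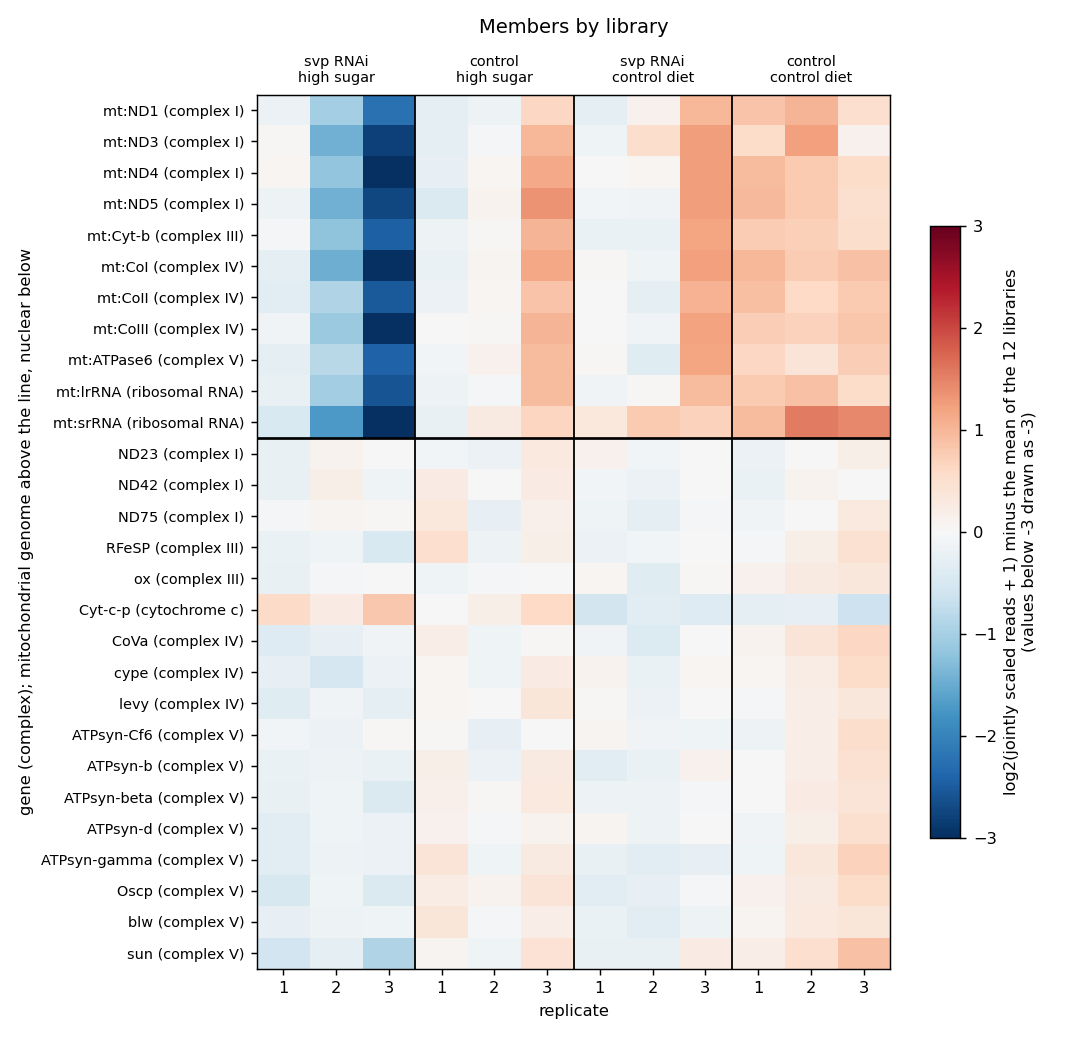
Jointly scaled reads of the 28 genes on a log2 scale, minus the mean of the 12 libraries for each gene (colour), by library (columns) and gene (rows, mitochondrial genome above the line). Replicate 3 of svp RNAi on high sugar is darkest blue in all 11 mitochondrially encoded rows, and Cyt-c-p is the nuclear row that splits by diet.

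Read numbers were divided by exon length for comparison between genes, with lengths from BDGP6, a later build than that of the files. Averaged over the 12 libraries, mt:lrRNA, the large ribosomal RNA of the mitochondrion, stood at 78120 jointly scaled reads per kb. The subunits of complex IV followed, with mt:CoIII at 25030, mt:CoI at 16180 and mt:CoII at 8711 reads per kb. Cytochrome b of complex III, mt:Cyt-b, had 7546 and mt:ATPase6, the membrane channel subunit of ATP synthase, 3996 reads per kb. The complex I subunits were lower, with mt:ND1 at 2045, mt:ND4 at 1234, mt:ND3 at 886 and mt:ND5 at 588 reads per kb. The small ribosomal RNA, mt:srRNA, had 196 reads per kb. Ribosomal RNA had been removed from the libraries with RiboZero. The few nuclear ribosomal RNA genes among those tested took 0.528% to 4.62% of the reads, which need not be all that was left. How far this step touched either mitochondrial ribosomal RNA was not tested. Nuclear genes with a length ran from 158 reads per kb for ND23 to 1212 for CoVa, so 7 of the 9 mitochondrially encoded protein genes stood above all of them in this average. Within svp RNAi on high sugar alone, 5 of the 9 did, since mt:ND1 at 924 and mt:ND4 at 508 reads per kb lay below CoVa at 1007.

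Next, the libraries labelled svp RNAi were compared with control on high sugar. Of the 11 mitochondrially encoded genes, 5 fell and 0 rose (limma, adjusted p under 0.05 over all genes tested), against a background of 6.22% of all genes called lower. They were mt:CoI, mt:CoII, mt:ATPase6, mt:ND5 and mt:srRNA. All 11 had a fold change below 0, with a median log2 fold change of -1.64 beside -0.01 over all genes. The 11 genes were all lowest in the same svp RNAi library, so here and below they are not 11 separate observations. In 6 of the 11 the 3 svp RNAi libraries all lay below the 3 control libraries, as they did in 15.3% of all genes.

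For mt:CoI, the catalytic subunit of complex IV, the normalized abundance was 16531, 7427 and 2444 in high-sugar libraries labelled svp RNAi, against 17666, 21668 and 45393 in control. The groups did not overlap, but the highest svp RNAi library was close to the lowest control library. The log2 fold change was -1.95 ± 0.55 (SE), a 3.87-fold lower level (limma adjusted p = 0.029). For mt:CoII, which takes electrons from cytochrome c, the values were 4121, 2828 and 914 in svp RNAi, against 4641, 5481 and 9470 in control. Its log2 fold change was -1.50 ± 0.45 (limma adjusted p = 0.040). The remaining mitochondrially encoded subunit of complex IV, mt:CoIII, had 15406, 7711 and 1841 in svp RNAi, against 16272, 17113 and 33941 in control. It too did not overlap, yet missed the threshold with a log2 fold change of -1.81 ± 0.58 (limma adjusted p = 0.051).

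The mitochondrially encoded subunit of ATP synthase, mt:ATPase6, had 1936, 1342 and 439 in svp RNAi, against 2261, 2607 and 4624 in control. These groups were also separate, with a log2 fold change of -1.52 ± 0.47 (limma adjusted p = 0.043). Its gene overlaps mt:ATPase8, and reads in the overlap cannot be assigned to either, since the counting rule is not given. In complex III, mt:Cyt-b had 7192, 3236 and 1370 in svp RNAi, against 6708, 7711 and 15239 in control. Replicate 1 of svp RNAi lay above replicate 1 of control, and the log2 fold change of -1.54 ± 0.49 did not pass (limma adjusted p = 0.053).

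The complex I subunits encoded in the mitochondrion overlapped between the groups. For mt:ND5 the values were 744, 307 and 122 in svp RNAi, against 617, 896 and 2137 in control, a log2 fold change of -1.80 ± 0.55 that passed (limma adjusted p = 0.045). For mt:ND4 they were 1407, 596 and 120 in svp RNAi, against 1138, 1425 and 2981 in control (log2 fold change -1.86 ± 0.64, limma adjusted p = 0.071). In both, replicate 1 of svp RNAi lay between the lowest control libraries and replicates 2 and 3 lay below all of control. For mt:ND1 they were 1502, 849 and 356 in svp RNAi, against 1410, 1553 and 2643 in control (log2 fold change -1.22 ± 0.42, limma adjusted p = 0.072). For mt:ND3, which has the fewest reads of the protein genes, they were 267, 96.8 and 35.4 in svp RNAi, against 217, 255 and 520 in control (log2 fold change -1.64 ± 0.56, limma adjusted p = 0.070). So of the 4 complex I genes, 1 passed.

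Of the mitochondrial ribosomal RNAs, the small one passed. The large one, mt:lrRNA, had 77662, 44144 and 15084 in svp RNAi, against 80592, 88305 and 176120 in control, with no overlap and a log2 fold change of -1.53 ± 0.50 (limma adjusted p = 0.058). The small one, mt:srRNA, had 83.8, 33.9 and 4.20 in svp RNAi, against 96.4, 139 and 178 in control, and fell with a log2 fold change of -2.43 ± 0.67 (limma adjusted p = 0.025). This was the largest fold change of the 11 and rests on few reads in replicate 3 of svp RNAi. The count of 5 was 1 without replicate 3 of svp RNAi, 2 without replicate 2 of svp RNAi and 11 without replicate 1 of svp RNAi. Without replicate 2 or replicate 3 of control on high sugar it was 1 or 0, and without replicate 1, 2 or 3 of control on the control diet, or replicate 1 of svp RNAi on the control diet, it was 2 or 3. Without replicate 3 of svp RNAi the median log2 fold change was -0.92, and all 11 genes were below 0. In high-sugar libraries labelled svp RNAi the muscle share was 0.338%, 0.310% and 0.341%, against 0.647%, 0.479% and 0.516% in high-sugar control. The part of muscle in the lower mitochondrially encoded levels was not tested.

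**Figure D3:**
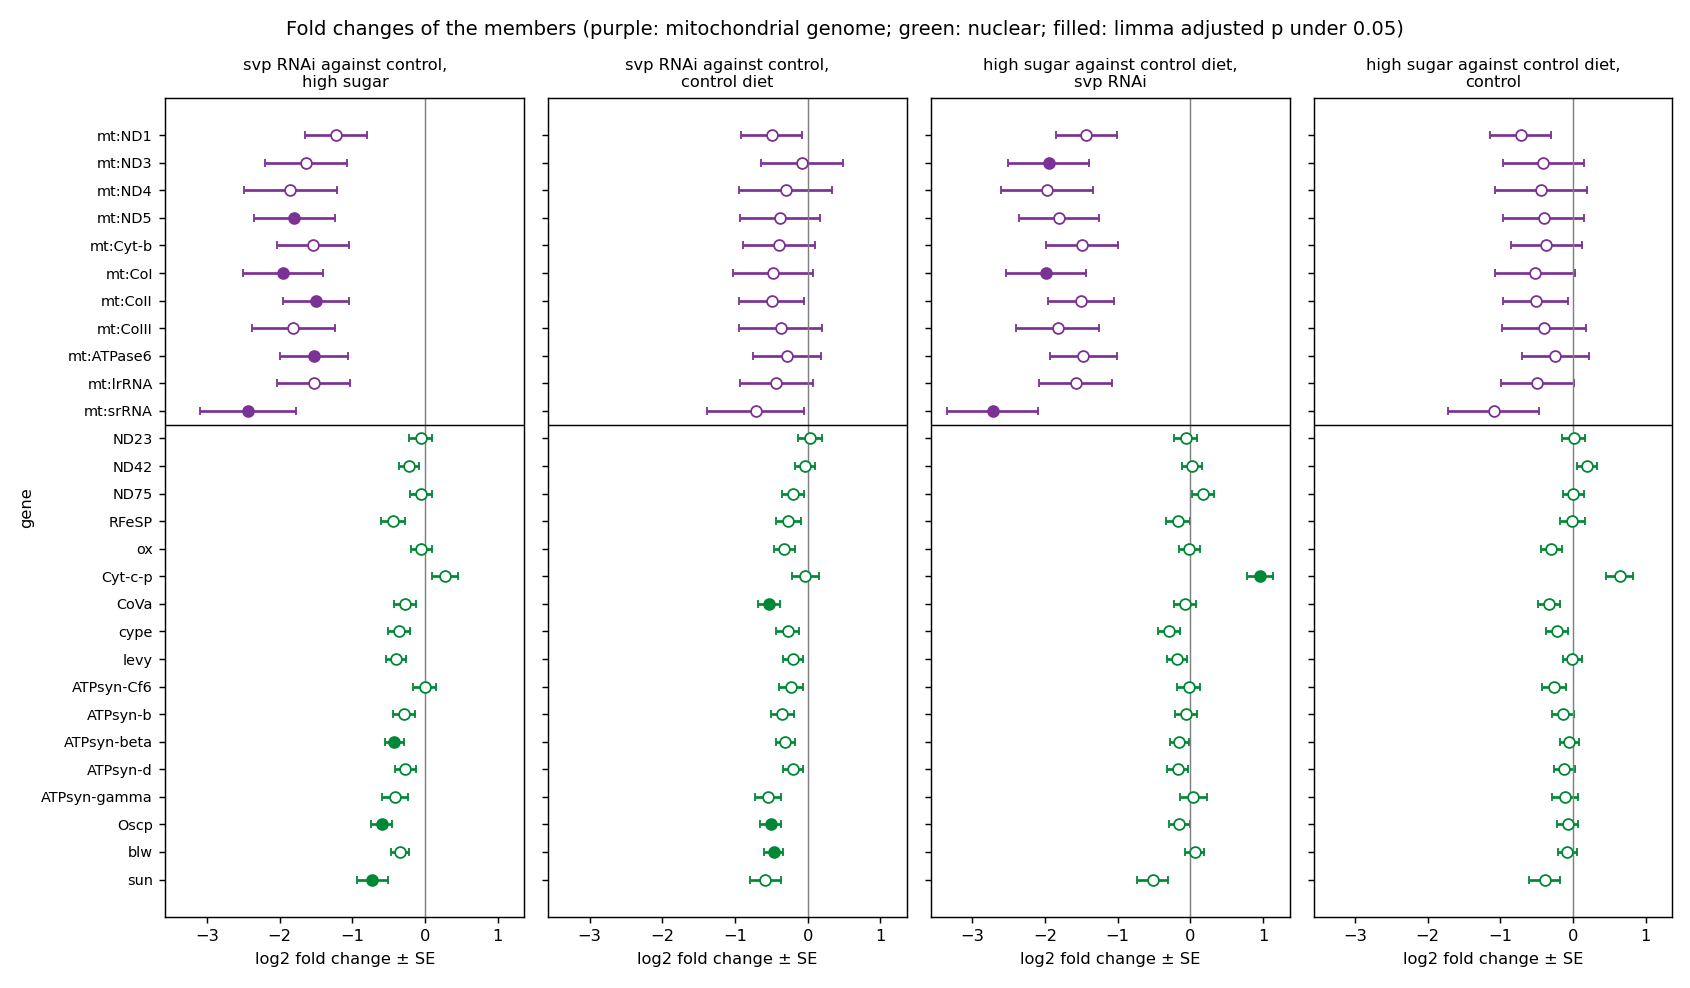
Log2 fold change with its SE (horizontal axis) of each gene (vertical axis) in 4 comparisons: svp RNAi against control on high sugar and on the control diet, and high sugar against the control diet in svp RNAi and in control. Purple marks the mitochondrial genome, green the nucleus and filled points pass the limma threshold; the purple points lie furthest left in both comparisons that hold the high-sugar svp RNAi libraries.

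Among nuclear genes on high sugar, 3 of 17 fell and 0 rose, beside the 6.22% of all genes called lower and 7.17% called higher (13.4% in all), and all 3 belong to ATP synthase. Oscp, a stalk subunit that ties the catalytic head to the membrane part, had 309, 395 and 317 in the libraries labelled svp RNAi, against 505, 465 and 572 in control. Its log2 fold change was -0.60 ± 0.14 (limma adjusted p = 0.012). For sun, the epsilon subunit of the central stalk, the values were 243, 300 and 192 in svp RNAi, against 386, 333 and 494 in control (log2 fold change -0.73 ± 0.21, limma adjusted p = 0.034). For ATPsyn-beta, the catalytic subunit of the head, they were 2028, 2193 and 1760 in svp RNAi, against 2623, 2450 and 2937 in control (log2 fold change -0.42 ± 0.13, limma adjusted p = 0.046), a call that quantile normalization ended (limma adjusted p = 0.051). In all 3 genes every svp RNAi library lay below every control library. In 8 of the 17 nuclear genes the svp RNAi libraries all lay below control, against 15.3% of all genes, and 16 of 17 fold changes were below 0, with a median of -0.28. Of all genes tested, 4775 of 9367 were below 0.

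Of the 17 nuclear genes, those of the other complexes did not pass on high sugar. The Rieske iron-sulfur subunit of complex III, RFeSP, had 314, 331 and 262 in svp RNAi, against 511, 327 and 410 in control, with 1 overlapping pair of libraries and a log2 fold change of -0.44 ± 0.17 (limma adjusted p = 0.10). Cytochrome c, encoded by Cyt-c-p, was the nuclear gene with a fold change above 0, at 0.28 ± 0.18 (limma adjusted p = 0.36). The 3 nuclear complex I genes, ND23, ND42 and ND75, had log2 fold changes between -0.22 and -0.05. The count of 3 nuclear calls was 1 without replicate 1 of control on high sugar and 0 without replicate 3 of control or without replicate 1 or 3 of svp RNAi.

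On the control diet, svp RNAi was compared with control in the same way. None of the 11 mitochondrially encoded genes was called in limma (0 at an adjusted and 0 at an unadjusted p under 0.05, and 0 with limma voom), where 8.56% of all genes were called. All 11 fold changes were below 0, between -0.71 for mt:srRNA and -0.08 for mt:ND3, with a median of -0.40. For mt:CoI the normalized abundance was 19290, 17299 and 44314 in svp RNAi, against 37164, 31368 and 34408 in control (log2 fold change -0.48 ± 0.55, limma adjusted p = 0.68). The svp RNAi libraries lay on both sides of control, with replicates 1 and 2 below and replicate 3 above. Only mt:srRNA did not overlap, with 131, 182 and 169 in svp RNAi, against 202, 310 and 287 in control (log2 fold change -0.71 ± 0.67, limma adjusted p = 0.59), where 12.3% of all genes had every svp RNAi library below control.

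Of the nuclear genes on the control diet, 3 of 17 fell and 0 rose, beside 4.29% of all genes called lower and 4.27% called higher. The alpha subunit of the catalytic head of ATP synthase, blw, had 1888, 1713 and 1934 in svp RNAi, against 2290, 2598 and 2785 in control. Its log2 fold change was -0.47 ± 0.13 (limma adjusted p = 0.034). Oscp had 323, 341 and 385 in svp RNAi, against 436, 477 and 586 in control (log2 fold change -0.51 ± 0.14, limma adjusted p = 0.041). CoVa, a nuclear subunit of complex IV, had 847, 690 and 911 in svp RNAi, against 968, 1177 and 1406 in control (log2 fold change -0.53 ± 0.15, limma adjusted p = 0.046). In each of these genes the groups were separate, and the control libraries were spread more widely than those labelled svp RNAi.

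The largest fold changes of nuclear genes on the control diet did not pass. They were sun, with 287, 287 and 399 in svp RNAi against 384, 471 and 616 in control (log2 fold change -0.58 ± 0.21, limma adjusted p = 0.11), and ATPsyn-gamma, the rotor subunit of the central stalk, at -0.55 ± 0.18 (limma adjusted p = 0.080). In 6 of the 17 genes all svp RNAi libraries lay below control, against 12.3% of all genes, and 16 of 17 fold changes were below 0, with a median of -0.28 beside 0.01 over all genes. The 3 calls were 0 without replicate 2 or 3 of control, without replicate 1 or 2 of svp RNAi, or without replicate 3 of svp RNAi on high sugar, which enters through the shared estimate of spread.

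The other nuclear genes of oxidative phosphorylation, 52 further genes taken from a list of complex subunits, had medians below 0 in both comparisons. On high sugar 7 of 52 fell and 0 rose in libraries labelled svp RNAi, beside 6.22% of all genes called lower, with a median log2 fold change of -0.24. On the control diet 1 of 52 fell and 0 rose, a share under the 4.29% of all genes called lower, with a median of -0.18. With the 17 genes of the set included, ATP synthase had 13 measured nuclear genes, and all 13 fold changes were below 0 on either diet, with a median of -0.41 on both. Of these 13, 5 fell on high sugar and 2 on the control diet, beside the same 6.22% and 4.29% of all genes. Complex IV was similar, with 9 of 10 fold changes below 0 on high sugar and 10 of 10 on the control diet. Its medians were -0.32 and -0.28, and 3 and 2 genes fell. Complex III with cytochrome c had 8 of 9 and 9 of 9 below 0, with medians of -0.28 and -0.32 and 0 calls. Complex I had 33 measured nuclear genes, of which 2 fell on high sugar, a share near the background of 6.22%, and 0 on the control diet, with medians of -0.21 and -0.09. Complex II, which has no mitochondrially encoded subunit, had 0 of 4 called on either diet, with medians of -0.08 and -0.01. Complexes were not tested against each other.

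**Figure D4:**
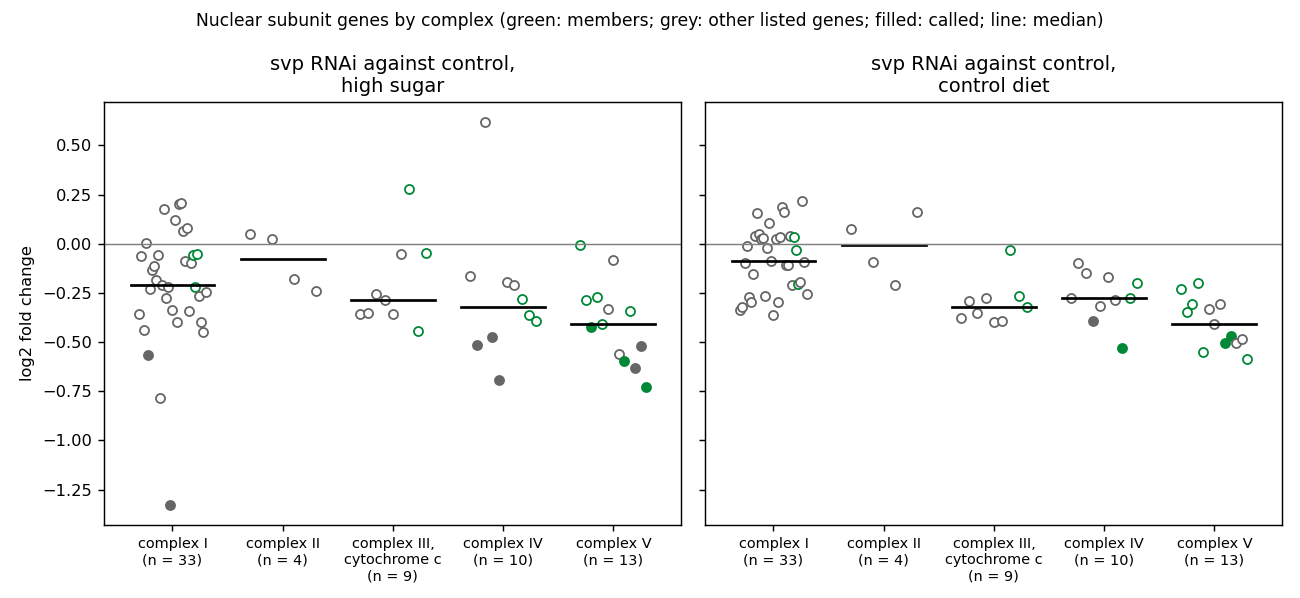
Log2 fold change of svp RNAi against control (vertical axis) for every measured nuclear subunit gene, grouped by complex, on high sugar (left) and on the control diet (right), with genes of the set in green, others in grey, called genes filled and the median as a line. All 13 ATP synthase genes lie below 0 on both diets, and CG40002 is the lowest point on high sugar. On the control diet all 9 genes of complex III with cytochrome c and all 10 of complex IV lie below 0 too.

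The gene with the largest change among the 52 was CG40002, whose current name is ND-AGGG, an accessory subunit of complex I. Its normalized abundance was 35.9, 40.3 and 22.7 in high-sugar libraries labelled svp RNAi, against 69.6, 79.0 and 100.6 in control. The groups were well apart, with a log2 fold change of -1.33 ± 0.22 (limma adjusted p = 0.0009), and it was called whichever library was left out. The other largest calls on high sugar were CG2249 (COX7C, complex IV) at -0.69 ± 0.14, l(1)G0230 (the delta subunit of ATP synthase) at -0.63 ± 0.17, CG12400 (ND-B14.5B, complex I) at -0.57 ± 0.14 and ATPsynG (subunit g of ATP synthase) at -0.52 ± 0.15 on the log2 scale. Of these, CG2249 was called whichever library was left out, and the others lost their call without replicate 3 of control or of svp RNAi on high sugar, among others. The single call on the control diet was CG14235 (COX6B, complex IV), with a log2 fold change of -0.39 ± 0.11 (limma adjusted p = 0.039), called in 4 of the 12 fits that leave out 1 library. CG14235 was also called on high sugar, with a log2 fold change of -0.48, and there the call held whichever library was left out. Muscle genes fell in the same 2 comparisons, 8 of 15 on high sugar and 14 of 15 on the control diet. Of all genes, 6.22% and 4.29% were called lower there. The muscle share was thus lower with svp RNAi than in control on both diets, and its part in the lower nuclear subunit levels was not tested.

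The diet comparison was next made within each genotype, on jointly scaled reads. Within the libraries labelled svp RNAi, 3 of 11 mitochondrially encoded genes fell on high sugar and 0 rose, against 3.73% of all genes called lower, 4.73% called higher and 8.46% in all. These were mt:CoI, mt:ND3 and mt:srRNA, and all 11 fold changes were below 0, with a median of -1.81 beside -0.01 over all genes. In 6 of the 11 all high-sugar libraries lay below the control-diet libraries, against 13.7% of all genes. The 3 high-sugar svp RNAi libraries are the ones that also entered the comparison with control on high sugar. Within svp RNAi, 6 hemocyte markers took 0.107%, 0.0822% and 0.0962% of the reads on high sugar, against 0.151%, 0.174% and 0.144% on the control diet, and 2 of 6 fell, with a median log2 fold change of -0.73. The nuclear ribosomal RNA genes among those tested took 1.04%, 0.763% and 0.618% on high sugar, against 1.8%, 1.71% and 1.34% on the control diet. Neither measure overlapped between the diets in svp RNAi. In control, 1 of 6 hemocyte markers fell on high sugar, beside 0.641% of all genes called lower, with a median of -0.54. The nuclear ribosomal RNA share in control overlapped between the diets. It was 0.922% ± 0.431 on high sugar and 2.56% ± 1.83 on the control diet (SD, n = 3 each). On high sugar, 2 of 6 hemocyte markers fell and 1 rose in svp RNAi against control, beside 6.22% and 7.17% of all genes. The part of either measure in the lower mitochondrially encoded levels was not tested.

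For mt:CoI there were 15905, 7110 and 2357 jointly scaled reads on high sugar, against 19943, 17913 and 46110 on the control diet, without overlap (log2 fold change -1.98 ± 0.55, limma adjusted p = 0.039). For mt:ND3 there were 256, 92.1 and 35.4 on high sugar, against 230, 361 and 601 on the control diet, and replicate 1 of each diet overlapped (log2 fold change -1.95 ± 0.56, limma adjusted p = 0.045). For mt:srRNA there were 80.0, 32.2 and 4.94 on high sugar, against 136, 188 and 176 on the control diet (log2 fold change -2.72 ± 0.62, limma adjusted p = 0.018). The other 8 genes had log2 fold changes between -1.98 and -1.43 and did not pass. Without replicate 3 of svp RNAi on high sugar the count was 1 and the median -0.97, and without replicate 1 it was 11. It was 1 without replicate 2 of svp RNAi on high sugar or replicate 1 of control on the control diet, 5 without replicate 3 of control on high sugar, and 0 without replicate 2 or 3 of svp RNAi on the control diet.

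Within control, none of the 11 mitochondrially encoded genes was called in limma for high sugar against the control diet. There were also 0 at an unadjusted p under 0.05 and 0 with limma voom. Of all genes 1.90% were called, 0.641% lower and 1.26% higher. All 11 fold changes lay below 0, between -1.09 for mt:srRNA and -0.24 for mt:ATPase6, with a median of -0.44. Only in mt:srRNA did all high-sugar libraries lie below the control-diet libraries, as they did in 914 of 9367 genes. For mt:CoI there were 17061, 20727 and 43543 jointly scaled reads on high sugar, against 38788, 33054 and 35756 on the control diet. Replicate 3 on high sugar was above every control-diet library and the other 2 were below them.

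A single nuclear gene rose on high sugar. Cyt-c-p, the main somatic cytochrome c of the fly, carries electrons from complex III to complex IV. In the libraries labelled svp RNAi it had 175, 140 and 207 jointly scaled reads on high sugar, against 80.6, 94.0 and 90.2 on the control diet. In control it had 119, 134 and 178 on high sugar, against 97.7, 98.7 and 77.0 on the control diet. Every high-sugar library lay above every control-diet library in both genotypes. Of all genes tested, 17.4% did so in svp RNAi and 941 of 9367 in control. The log2 fold change in svp RNAi was 0.96 ± 0.18, a 1.94-fold higher level (limma adjusted p = 0.0069), beside 4.73% of all genes called higher, and the call held whichever library was left out. In control it was 0.64 ± 0.18 and did not pass (limma adjusted p = 0.098). The difference between the genotypes was 0.31 ± 0.26 on the log2 scale and did not pass either (limma adjusted p = 0.67).

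The remaining nuclear genes did not pass in either diet comparison. In svp RNAi 0 of 17 fell, with a median log2 fold change of -0.06, and in control 0 of 17 were called in either direction, with a median of -0.08 and 2 genes at an unadjusted p under 0.05. In svp RNAi the next largest after Cyt-c-p were sun at -0.52 ± 0.21 (limma adjusted p = 0.14) and cype, a subunit of complex IV, at -0.29 ± 0.15 (limma adjusted p = 0.25). In control they were sun at -0.39 ± 0.21 (limma adjusted p = 0.40) and CoVa at -0.34 ± 0.15 (limma adjusted p = 0.31). Of the 52 further subunit genes, 1 fell in svp RNAi, a share under the 3.73% of all genes called lower there, and 0 in control. It was CG40002, with 34.5, 38.8 and 22.2 jointly scaled reads on high sugar, against 70.4, 62.7 and 80.7 on the control diet in svp RNAi (log2 fold change -1.17 ± 0.22, limma adjusted p = 0.0059).

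The difference between the genotypes in their response to diet passed for none of the 28 genes (limma, 0 calls, 0 at an unadjusted p under 0.05 and 0 with limma voom), where 0.192% of all genes were called, 0.0854% with a negative and 0.107% with a positive value. For the 11 mitochondrially encoded genes this interaction had a median of -1.42 on the log2 scale, a lower value in the libraries labelled svp RNAi. Its SE ran from 0.60 for mt:ND1 to 0.94 for mt:srRNA, and the smallest adjusted p was 0.46. For mt:CoI it was -1.47 ± 0.78 (limma adjusted p = 0.47). So the lower mitochondrially encoded levels on high sugar in svp RNAi are not shown to differ from the response in control. For the 17 nuclear genes the median interaction was -0.07, with the largest values in Cyt-c-p at 0.31 ± 0.26, ox, a small subunit of complex III, at 0.27 ± 0.20, and CoVa at 0.25 ± 0.22.

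Genes that act on mitochondrial DNA and its transcription were read beside these. Of 9 measured genes for maintenance and transcription of the mitochondrial genome, 0 were called in either comparison of svp RNAi with control, with median log2 fold changes of -0.10 on high sugar and 0.05 on the control diet. Within svp RNAi 1 of 9 fell on high sugar, beside 3.73% of all genes called lower. This was mtTFB2, a transcription factor of mitochondria, with 9.99, 11.1 and 8.23 jointly scaled reads on high sugar, against 15.3, 24.4 and 20.6 on the control diet (log2 fold change -0.95 ± 0.27, limma adjusted p = 0.045). Its groups did not overlap, but its reads are few, and its call was lost without any of the 3 high-sugar svp RNAi libraries, replicate 2 or 3 of svp RNAi on the control diet or any of the 3 control libraries on the control diet. It was also lost on the deposited values (limma adjusted p = 0.05 after rounding), with quantile normalization (limma adjusted p = 0.13) and with limma voom (adjusted p = 0.052). Of 5 measured assembly factors of the complexes, 0 were called in any comparison.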

How the data were processed

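RNA was measured in 12 fat body libraries, 3 in each of 4 groups. Build dm3 and the tools Bowtie 0.12.7, TopHat 1.3.2, edgeR and Cufflinks 1.1.0 were used by the authors, per the submitters' processing notes. Not given in the sources used here are the annotation, the counting program and its strand setting, so reads of overlapping or antisense genes may be shared. The authors deposited a column of signal for each library, named normalized abundance, in read-like units and not divided by length. Their form is that of negative binomial reads adjusted to a common library size, separately for each diet. Inverting that adjustment brought 99.7% or more of the values of genes with means from 12 to 20 to within 0.1 of a whole read in every library, against 13.4% to 43.4% of the deposited values of low genes. Recovered reads numbered 4381294 to 6556340 per library over the genes kept. Counting error is largest where reads are few, as for mt:srRNA in replicate 3 of svp RNAi on high sugar.

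Of 9527 rows, 156 with names that are not unique without case and 4 with bare numbers as names were left out, and all 9367 others had a mean of at least 1. Values were tested as log2(value + 1) with limma 3.58.1 (R 4.3.3), a scale that understates changes of low genes, with an intensity trend, 4 group means over 12 libraries and Benjamini-Hochberg adjustment over 9367 genes, two-sided. Comparisons of svp RNAi with control and the interaction used the deposited values. Comparisons of diets used recovered reads after median-of-ratios scaling over all libraries, since the deposited values differed between diets by a median of 0.103 on the log2 scale, against -0.009 after joint scaling. Shares and ratios are values without a test. Named were all mitochondrially encoded genes, each nuclear gene called in any of 5 contrasts, the 3 nuclear genes with the largest fold change in each contrast and, of the other lists, at most 5 called genes in each. CG11015 was the 1 further call on high sugar beside CG14235 that this limit leaves out. The genes, lists and tests were chosen with earlier results of these data known. Of the 28 genes, 27 were matched to the BDGP6 reference and ATPsyn-b, a synonym of more than 1 current gene, was not. The fits were tested on simulated data with the same dispersion for every gene. The wide spread of the mitochondrially encoded genes was not simulated. In the real data, 10 alternatives and the removal of each library were tried.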

Additional observations from a re-analysis of the deposited data

How the results depend on the processing

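Calls of mitochondrially encoded genes depended on the fit and on single libraries. For svp RNAi against control on high sugar the 5 mitochondrially encoded calls became 8 with limma voom on the recovered reads and 2 with a replicate block, and leaving out 1 library gave 0 to 11. Within svp RNAi the 3 calls on high sugar became 5 with quantile normalization, 5 with limma voom and 1 with a replicate block, and leaving out 1 library gave 0 to 11. The replicate numbers did not pair the libraries, so the block is given here alone. Same-number correlations ran from -0.146 to 0.136, and in 4 of 12 same-number pairs over the comparisons the own number correlated best. For svp RNAi against control, the block also ended the call of ATPsyn-beta on high sugar (limma adjusted p = 0.059). It ended that of CG14235 on the control diet as well (limma adjusted p = 0.053). Nuclear calls went from 0 to 1 for diet in control when the deposited values were used for all contrasts. Without 1 library, nuclear calls of svp RNAi against control ran from 0 to 4 on high sugar and from 0 to 4 on the control diet, were always 1 for diet in svp RNAi and always 0 for diet in control; interaction calls were 0 for both genomes throughout. With quantile normalization mt:lrRNA turned to a log2 fold change of 0.44 for svp RNAi against control on the control diet and 0.16 for diet in control, with limma adjusted p of 0.71 and 0.93; the cause was not tested. Without 1 library, the log2 difference in the mitochondrially encoded share ran from -2.29 to -0.97 for svp RNAi against control on high sugar, from -0.62 to 0.07 on the control diet, from -2.38 to -1.06 for diet in svp RNAi and from -0.62 to -0.02 in control. The ratio to the nuclear genes ran from -2.06 to -0.70, from -0.44 to 0.13, from -2.36 to -1.0 and from -0.67 to -0.08 in the same order. For svp RNAi against control on the control diet, mt:ATPase6 ran from -0.73 to 0.044 and mt:ND3 from -0.43 to 0.26 without 1 library. No detection limit was estimated for the mitochondrially encoded genes, whose within-group SD had a median of 0.86.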

Other observations

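The make-up of the mitochondrially encoded protein reads held steadier than their amount. Across the 12 libraries mt:CoI made up 30.5% to 39.6% of them, mt:CoIII 24.1% to 32.0%, mt:Cyt-b 11.1% to 17.9%, mt:ATPase6 3.38% to 5.75% and mt:ND1 2.26% to 4.67%. The parts of mt:CoII were 8.10% to 12.0%, of mt:ND4 1.59% to 2.86%, of mt:ND5 1.21% to 1.83% and of mt:ND3 0.296% to 0.732%. The 3 genes of the minor coding strand measured here (mt:ND1, mt:ND4 and mt:ND5) had 0.0617 to 0.0861 times the reads of the 6 genes of the other strand. Replicate 3 of svp RNAi on high sugar had the fewest mitochondrially encoded reads. In that library mt:CoIII and mt:ND4 had their lowest part of the 12 libraries, and mt:CoII, mt:Cyt-b, mt:ATPase6 and mt:ND1 had their highest.

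The large ribosomal RNA followed the protein genes, at 1.36 to 1.97 times their summed reads. The small one was lowest in the same library as they were, but it varied more against the large one. The ratio of mt:lrRNA to mt:srRNA reads was 935, 1313 and 2946 in high-sugar libraries labelled svp RNAi, against 839, 637 and 991 in high-sugar control, and 597, 477 and 957 in the control-diet libraries labelled svp RNAi, against 717, 492 and 426 in control-diet control. The ratio of 2946 rests on few reads, since mt:srRNA took 9.15e-05% of the reads of that library. The groups overlap on both diets, and the ratio was not tested.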
